A study of Mus musculus with 9 samples.

Results

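The 100 brightest odorant receptor genes of the mouse olfactory bulb were described. They were taken from 1096 probe sets whose only gene symbol begins with Olfr, and chosen by their mean log2 signal over the 3 vehicle arrays, of which the 100 highest were kept, or 9.12% of the receptor probe sets. The bulb RNA came from male ICR mice, an outbred stock, aged 8 weeks per the labels. For 7 days they inhaled the vehicle (1% Tween 80, a detergent), linalyl acetate at 1% or linalyl acetate at 10% by whole-body exposure, with 3 arrays per group and 9 in all. Linalyl acetate is an ester that makes up much of the scent of lavender. A tail suspension test, which scores immobility, followed 30 min of inhalation. Whether Tween 80 was also in the linalyl acetate aerosols, and whether each array was a separate animal, is not given in the labels, so the errors below measure the spread between arrays. Groups follow the sample titles. The descriptions of 5 arrays give oral and injected treatments instead: saline for vehicle replicates 1 and 2, saline with lipopolysaccharide for vehicle replicate 3, and the olive compound oleacein with lipopolysaccharide for 1% replicates 1 and 2.

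Odorant receptors are G protein-coupled receptors of sensory neurons in the nasal epithelium. Each mature neuron expresses a single receptor gene, and all neurons with the same receptor send their axons to the same few glomeruli of the bulb. The cell bodies lie in the nose, and receptor mRNA is known to be present at low levels in the axons that reach the bulb. Omp, olfactory marker protein, is abundant in mature sensory neurons and its mRNA is also carried in their axons. In bulk tissue, fewer axons and less mRNA per axon cannot be told apart.

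The receptors just inside the limit were Olfr328, Olfr676, Olfr1223, Olfr772 and Olfr9, at 5.85, 5.85, 5.84, 5.83 and 5.83 log2 units in vehicle. Just outside lay Olfr519, Olfr170, Olfr114, Olfr1474 and Olfr554, at 5.82, 5.82, 5.81, 5.81 and 5.80. The limit therefore fell in a continuous range of values. A rank by brightness reflects the probes as well as the RNA, so the order of receptors is no order of transcript abundance.

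Of the 100 receptors, 98 were matched by symbol to RefSeq, all but Olfr237-ps1 and Olfr175-ps1. RefSeq lists 95 of them as protein coding. By the family number of their MOR names, 8 were class I receptors, the fish-like group, and 86 were class II, the group largely particular to land vertebrates, while 6 could not be assigned. Class I thus made up 8.51% of the assigned receptors, against 11.6% of the other assigned receptors. Chromosome 2 held 26.5% of the matched members, against 26.1% of all matched receptors, chromosome 7 held 16.3% against 21.4%, and chromosome 9 held 12.2% against 12.1%. Of the 98 matched receptors, 34 (34.7%) had another of the 100 as their next measured receptor within 100 kilobases, against 141 of 991 other receptors (14.2%) that had one of the 100 beside them. These neighbours formed 18 pairs, 9 of them within a single MOR family. The array annotation classed 12% of the 100 probe sets as Multiple_Complex, against 4.22% of the other receptors.

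Upstream windows are shown for 2 neighbouring pairs, because the first holds the brightest receptor and the second holds a receptor whose signal differed between doses at an unadjusted p under 0.05. Each window runs from 250 bases before to 50 bases after the gene start in RefSeq on GRCm38.p6, 5′ to 3′ on the gene's strand. Capitals mark the longest run that is identical in both windows of a pair when they are aligned. Olfr1412 and Olfr1410 are neighbours of MOR family 208, with windows at chr1:92588082-92588381 and chr1:92607589-92607888 on the plus strand. Olfr287 and Olfr288 are neighbours of MOR family 286, with windows at chr15:98221007-98221306 and chr15:98195493-98195792 on the minus strand.
Olfr1412: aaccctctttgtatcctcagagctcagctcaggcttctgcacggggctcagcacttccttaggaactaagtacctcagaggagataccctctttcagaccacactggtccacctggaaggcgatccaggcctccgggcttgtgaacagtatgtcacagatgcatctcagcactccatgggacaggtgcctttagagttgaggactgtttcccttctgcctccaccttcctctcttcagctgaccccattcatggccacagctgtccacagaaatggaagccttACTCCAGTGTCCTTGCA
Olfr1410: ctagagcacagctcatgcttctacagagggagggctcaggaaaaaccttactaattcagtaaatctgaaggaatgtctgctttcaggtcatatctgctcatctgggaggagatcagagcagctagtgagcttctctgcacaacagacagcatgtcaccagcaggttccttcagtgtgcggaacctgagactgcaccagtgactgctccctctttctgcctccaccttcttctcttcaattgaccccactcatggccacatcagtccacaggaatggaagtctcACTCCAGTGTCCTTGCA
Olfr287: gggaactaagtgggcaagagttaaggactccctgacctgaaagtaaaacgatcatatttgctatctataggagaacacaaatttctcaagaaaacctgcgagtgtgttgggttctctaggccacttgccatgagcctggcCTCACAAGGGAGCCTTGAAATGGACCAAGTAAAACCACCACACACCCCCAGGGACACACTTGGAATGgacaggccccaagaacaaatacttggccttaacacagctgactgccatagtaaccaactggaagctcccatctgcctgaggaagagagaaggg
Olfr288: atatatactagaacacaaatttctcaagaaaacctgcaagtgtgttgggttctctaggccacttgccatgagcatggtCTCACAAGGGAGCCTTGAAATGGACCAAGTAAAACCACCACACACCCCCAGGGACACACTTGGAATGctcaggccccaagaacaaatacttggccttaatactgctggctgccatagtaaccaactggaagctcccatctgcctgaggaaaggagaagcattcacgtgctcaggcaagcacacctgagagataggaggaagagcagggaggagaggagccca
The Olfr1412 and Olfr1410 windows were identical at 64.9% of 322 aligned columns, with a longest shared run of 17 bases at their 3′ ends. That run lies within the 50 bases after the gene start, which open with ATG in both windows. It is therefore not upstream sequence. The Olfr287 and Olfr288 windows were identical at 62.7% of 362 columns, with a longest shared run of 67 bases. Within that run both hold CCCNNGGG, the core letters bound by Olf1/EBF factors, which are regulators of sensory neuron genes.

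Letters of these motifs were searched on both strands in the windows of the 82 receptors that have one in the RefSeq table. The homeodomain core TAATTA was present in 9 of 82 windows (11%), against 19.3% of 833 windows of other receptors and 5.29% of 32851 windows of all genes. The related core TAATGA was present in 28% of the 82 windows, 29.2% of the other receptors' windows and 9.78% of all windows. CCCNNGGG was present in 4.88%, 2.88% and 13.7% of these sets. For 70 of the 95 protein-coding members (73.7%) the RefSeq gene has a length that is a multiple of 3 and under 1200 bases, as a model of the coding sequence alone would, so many gene starts in these windows may be start codons.

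The 100 receptors were dim. Their vehicle means ran from 5.83 to 8.50 log2 units with a median of 6.19, against a median of 4.37 for the other 996 receptors, as the choice dictates. All 21367 probe sets with 1 symbol had a median of 6.93, and 62.8% of them lay above the lowest of the 100 and 35.4% above the brightest. Only 7 of the 100 exceeded 7 log2 units, 17 lay between 6.5 and 7, 49 between 6 and 6.5, and 27 under 6. The 5222 negative control probe sets of the array had a median of 6.87 to 7.12 per array. Against this median, 4 receptors lay above it in all 9 arrays, 17 in some arrays and 79 in none. No receptor exceeded the 95th percentile of the negative controls, 10.8 to 11.1, in any array. The negative controls are themselves bright, with 74.5% of them above the lowest of the 100, so they set no detection limit, and none was applied.

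**Figure D1:**
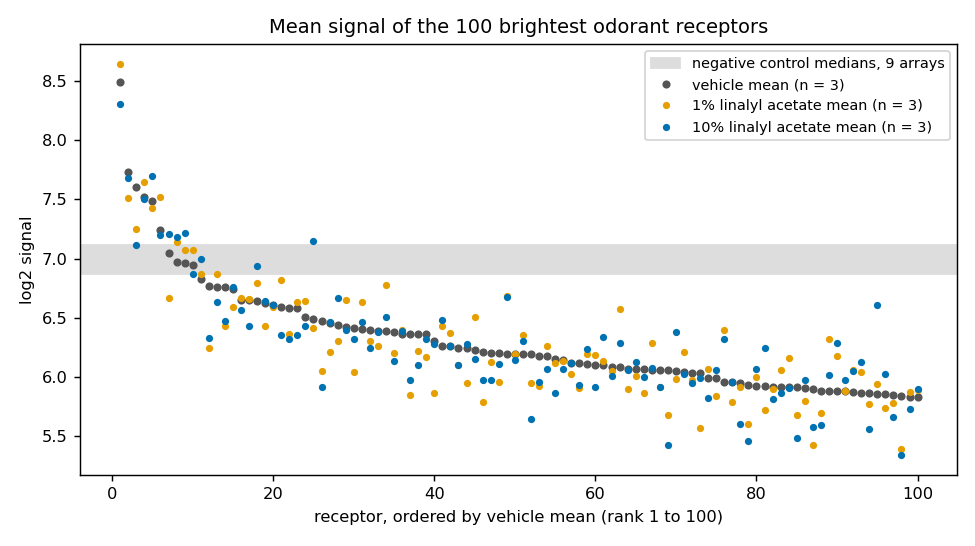
Mean log2 signal of each of the 100 receptors in vehicle (grey), 1% (orange) and 10% linalyl acetate (blue), n = 3 arrays each, ordered by vehicle mean, with the range of the negative control medians as a grey band. Vehicle means run from 8.50 to 5.83, and most points lie under the band of 6.87 to 7.12.

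The 4 receptors above the negative control median in every array were Olfr1412, Olfr32, Olfr898 and Olfr1410. Olfr1412, a class II receptor, had 8.78, 8.39 and 8.32 log2 units in vehicle, 8.88, 8.55 and 8.52 at 1%, and 8.57, 7.74 and 8.61 at 10%, where replicate 2 was the lowest of all arrays. It ranked first among receptors in each group. Its neighbour Olfr1410 had 7.38, 7.56 and 7.52 in vehicle, 7.46, 7.47 and 7.35 at 1%, and 8.18, 7.46 and 7.46 at 10%, where replicate 1 stood above all other arrays. Olfr898 had 7.63, 7.34 and 7.60 in vehicle, 7.95, 7.85 and 7.15 at 1%, and 7.91, 7.23 and 7.37 at 10%. The groups overlapped for each of these 3 receptors. Olfr32 had 7.83, 7.78 and 7.59 in vehicle, 7.66, 7.10 and 7.79 at 1%, and 7.84, 7.35 and 7.85 at 10%. Here replicate 2 was lowest in both linalyl acetate groups.

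The other 6 of the 10 brightest had vehicle means between 6.95 and 7.60. They were Olfr1371, the pseudogene-named Olfr237-ps1, Olfr287, Olfr1232, Olfr55 and the class I receptor Olfr666. Olfr666 had 7.48, 6.93 and 6.43 in vehicle, 7.41, 6.92 and 6.89 at 1%, and 7.04, 6.69 and 6.87 at 10%. Its vehicle arrays spanned more than either linalyl acetate group.

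The ordering of receptors was repeated in the arrays that did not choose them. Of the 100, 84 were also among the 100 highest by 1% mean and 85 by 10% mean, with 77 in both. In single linalyl acetate arrays, 72 to 79 of the 100 were among that array's 100 highest receptors, and 41 were so in all 6 of these arrays. Over all 1096 receptors, Spearman's rho of group means was 0.95 between 10% and 1%, which is across probe sets that share their probes' brightness and not across replicates. Within the 100, rho was 0.84. Olfr1223 reached the lowest ranks of the 100 in both linalyl acetate groups, 212 at 1% and 209 at 10%, from rank 98 in vehicle.

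Spread between arrays was close to that of the other receptors. The median SD over all 9 arrays was 0.288 log2 units for the 100, 0.287 for the other receptors and 0.258 for all probe sets. Among the vehicle arrays alone the medians were 0.244, 0.232 and 0.217. The steadiest receptor was Olfr1046, with an SD of 0.0887, followed by Olfr9 with 0.134 and Olfr1045 with 0.14. The most variable were Olfr228 with 0.652, Olfr110 with 0.593 and Olfr970 with 0.531, and no others exceeded 0.5. Olfr228 had 5.40, 6.04 and 6.13 in vehicle, 6.20, 6.23 and 5.38 at 1%, and 7.13, 7.12 and 5.58 at 10%. Single arrays of each group thus lay near 5.4 to 5.6, and 10% replicates 1 and 2 stood highest.

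Olfr110 and Olfr111 are neighbours on chromosome 17. Olfr110 had 7.02, 7.24 and 6.05 in vehicle, 6.24, 6.10 and 6.39 at 1%, and 5.75, 5.91 and 7.32 at 10%. Olfr111 had 7.07, 6.98 and 6.23 in vehicle, 6.95, 6.47 and 5.87 at 1%, and 6.25, 6.0 and 7.16 at 10%. Both were high in vehicle replicates 1 and 2 and in 10% replicate 3. Pearson's r between them was 0.73 over the 9 arrays with group means removed, and their upstream windows were identical at 46.9% of aligned columns. The neighbours Olfr898 and Olfr147 had r = 0.72, whereas Olfr1412 and Olfr1410 had 0.31 and Olfr287 and Olfr288 had 0.24. Over the 18 neighbouring pairs the median r was 0.21, with 10 pairs above 0, and over all 4950 pairs of the 100 it was 0.097.

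Relation to Omp was examined next. Omp had 11.81, 10.91 and 9.91 log2 units in vehicle, 9.99, 8.58 and 10.47 at 1%, and 10.62, 10.58 and 11.62 at 10%. Its group means were 10.88 ± 0.95, 9.68 ± 0.98 and 10.94 ± 0.59 (SD, n = 3 each), and 1% replicate 2 was the lowest of all arrays. The mean of the 100 receptors was 6.32, 6.32 and 6.31 in the vehicle arrays, 6.33, 6.18 and 6.30 at 1%, and 6.41, 6.18 and 6.22 at 10%. Over the 9 arrays the receptor mean and Omp had Pearson's r = 0.28 and Spearman's rho = 0.32. Without the 2 arrays farthest from the median of Omp, 1% replicate 2 and vehicle replicate 1, r was -0.36, so the sign of the relation rested on those arrays. The receptor mean and the mean of the other 996 receptors had r = 0.78 and rho = 0.83, and the receptor mean and the nasal marker mean had r = -0.33 and rho = -0.28. With group means removed, the median r with Omp was 0.71 over the bulb neuron markers and -0.54 over the cortical neuron markers described below, and the part of these tissues in the relation was not tested.

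Single receptors gave a similar picture. With group means removed, the median r with Omp was 0.074 over the 100, 0.033 over the other receptors and 0.019 over all probe sets. The r of a receptor was above 0 for 60 of the 100, against 53.7% of the other receptors and 51.5% of all probe sets. It was at least 0.7 for 6 of them (6%), against 3.51% of the other receptors and 5.91% of all probe sets. It was at most -0.7 for 2 of them (2%), against 2.51% of the other receptors and 5.27% of all probe sets. The highest were Olfr143 with 0.85, Olfr692 with 0.85, Olfr1045 with 0.84, Olfr32 with 0.79 and Olfr1393 with 0.77. The lowest were Olfr228 with -0.74, Olfr1348 with -0.73 and Olfr1502 with -0.62. All of these rest on 9 arrays. Stoml3, a membrane protein of sensory neuron cilia, had r = 0.91 with Omp when group means were removed. With group means kept, its r over the 9 arrays was 0.94, with rho = 0.73. Stoml3 was the highest of the receptor signalling genes described below, Omp aside. With group means removed, their r with Omp ran from -0.75 to 0.91, with a median of 0.27.

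**Figure D2:**
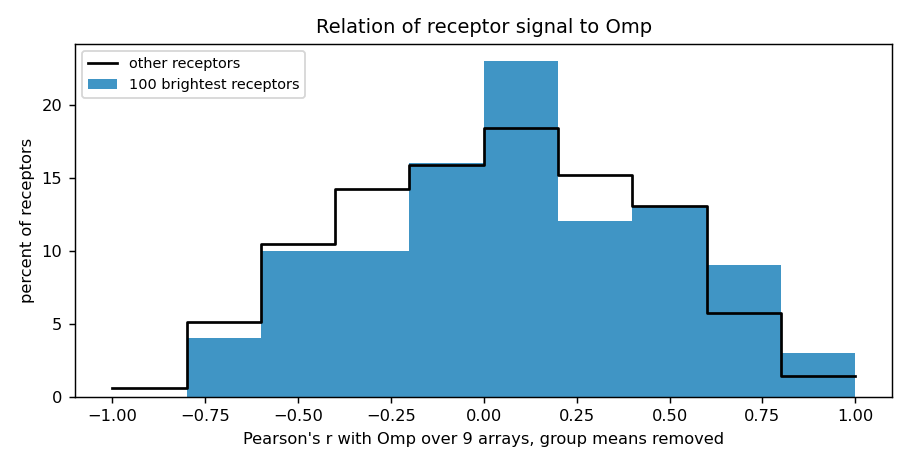
Pearson's r of each receptor with Omp over 9 arrays after group means were removed, as the percent of the 100 brightest receptors (bars) and of the other 996 receptors (line) in each interval of 0.2. Both distributions centre near 0, with medians of 0.074 and 0.033.

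Marker lists were set beside the receptor mean. Bulb neuron markers, such as tyrosine hydroxylase (Th) and Gad1 of bulb interneurons, were bright, with list means of 12.84 to 13.73 log2 units in vehicle, 13.06 to 13.57 at 1% and 12.87 to 13.64 at 10% for the 12 measured of 13 genes. Cortical neuron markers had list means of 10.41 in vehicle replicate 3, 10.35 in 1% replicate 2 and 10.39 in 10% replicate 2, and 9.25 to 9.71 in the other 6 arrays. The lowest receptor means, 6.18 each, were in 1% replicate 2 and 10% replicate 2, and vehicle replicate 3 had 6.31. Nasal epithelium markers, 16 measured of 18, had list means of 4.96 to 6.24 in vehicle, 5.11 to 6.77 at 1% and 5.47 to 7.18 at 10%. Of these, Cyp2g1, a nasal cytochrome P450, had 11.03, 5.66 and 10.00 in vehicle, 8.57, 5.97 and 7.58 at 1%, and 8.29, 9.54 and 7.77 at 10%. Its lowest values fell in vehicle replicate 2 and 1% replicate 2. The odorant-binding protein Obp2a, a secreted carrier of nasal glands, had 7.01, 4.34 and 4.76 in vehicle, 8.56, 6.01 and 10.39 at 1%, and 5.48, 12.35 and 11.80 at 10%. It was highest in 10% replicates 2 and 3, and Obp1a, Obp1b, Obp2b and Mup4 were also highest in those arrays or in 1% replicate 3. These 5 of the 16 were higher at 10% than in vehicle at an unadjusted p under 0.05, beside 2.06% of all probe sets, with differences of 2.43 to 4.51 and none past adjustment in limma (adjusted p = 0.998 each). Most of the other nasal markers were lower at 10%, and the median difference over the 16 was -0.08. The list was chosen with earlier results of these data known. The part of cortical or nasal tissue in the receptor values was not tested.

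**Figure D3:**
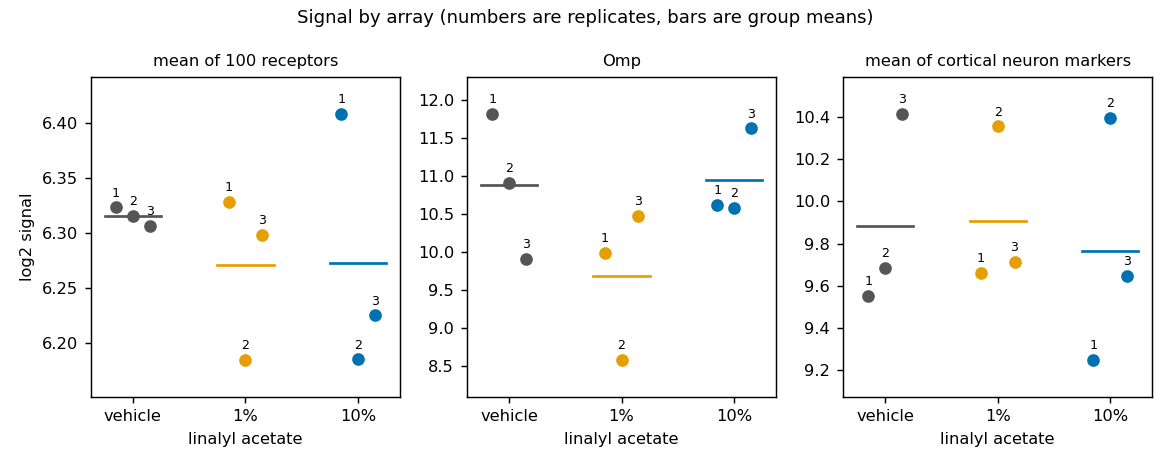
Mean log2 signal of the 100 receptors (left), Omp (middle) and the mean of the cortical neuron markers (right) in each of 9 arrays, labelled by replicate number, with bars for group means and separate vertical scales. The receptor mean spans 6.18 to 6.41, Omp spans 8.58 to 11.81, and 3 arrays stand above 10.3 in the cortical markers.

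The comparison of 10% with 1% linalyl acetate is independent of the choice of receptors, since neither group was used to rank them. No receptor of the 100 differed between doses after adjustment in limma, whose lowest Benjamini-Hochberg adjusted p among them was 0.999, and the share called over all 21367 probe sets was 0%. At an unadjusted p under 0.05, limma gave 2 receptors higher at 10%, Olfr1116 and Olfr287, and 1 lower, Olfr549. These 3 of 100 equal the 3% of all probe sets at that threshold, of which 1.72% were higher and 1.29% lower. The count was 1 without 10% replicate 2, and 6 without the 3 arrays of higher cortical marker signal, vehicle replicate 3, 1% replicate 2 and 10% replicate 2. The share over all probe sets was not taken in these fits. The median difference, 10% minus 1%, was -0.0083 log2 units over the 100, -0.025 over the other receptors and 0.0033 over all probe sets. Differences ran from -0.47 to 0.73, and 96 of the 100 lay within 0.5 of 0. The median SE of a difference was 0.217.

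Olfr1116, a class II receptor, had 7.70, 6.98 and 6.76 log2 units at 10%, against 6.34, 6.58 and 6.33 at 1%. All 3 arrays at 10% lay above all 3 at 1%, and replicate 1 at 10% was the highest. The difference was 0.73 ± 0.23 (SE, limma adjusted p = 0.999), and 0.45 without 10% replicate 1. Vehicle arrays had 6.30, 6.67 and 6.50, and the lowest 10% array lay above each of them.

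Olfr287 had 6.86, 7.42 and 7.35 at 10%, against 7.07, 6.59 and 6.34 at 1%. The groups overlapped, since 1% replicate 1 exceeded 10% replicate 1. The difference was 0.54 ± 0.23 (SE, limma adjusted p = 0.999). Its neighbour Olfr288 had 6.10, 6.0 and 5.88 at 10%, against 5.63, 5.41 and 5.65 at 1%. These groups did not overlap, and the difference of 0.43 ± 0.21 did not pass (SE, limma adjusted p = 0.999). Both genes are in the Multiple_Complex annotation class, as is Olfr1116. Their windows above share the run of 67 bases.

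Olfr549, a class I receptor, had 6.62, 6.14 and 6.29 at 10%, against 6.93, 6.60 and 6.92 at 1%. The groups overlapped by a narrow margin, since 10% replicate 1 exceeded 1% replicate 2. The difference was -0.47 ± 0.18 (SE, limma adjusted p = 0.999). Groups did not overlap for 2 receptors that were higher at 10%, Olfr1116 and Olfr288, against 4.03% of all probe sets. They did not overlap for 4 that were lower at 10%, Olfr237-ps1, Olfr239, Olfr692 and Olfr978, against 3.07% of all probe sets. Olfr978 lies outside the rule for named genes and was named after its values were seen.

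**Figure D4:**
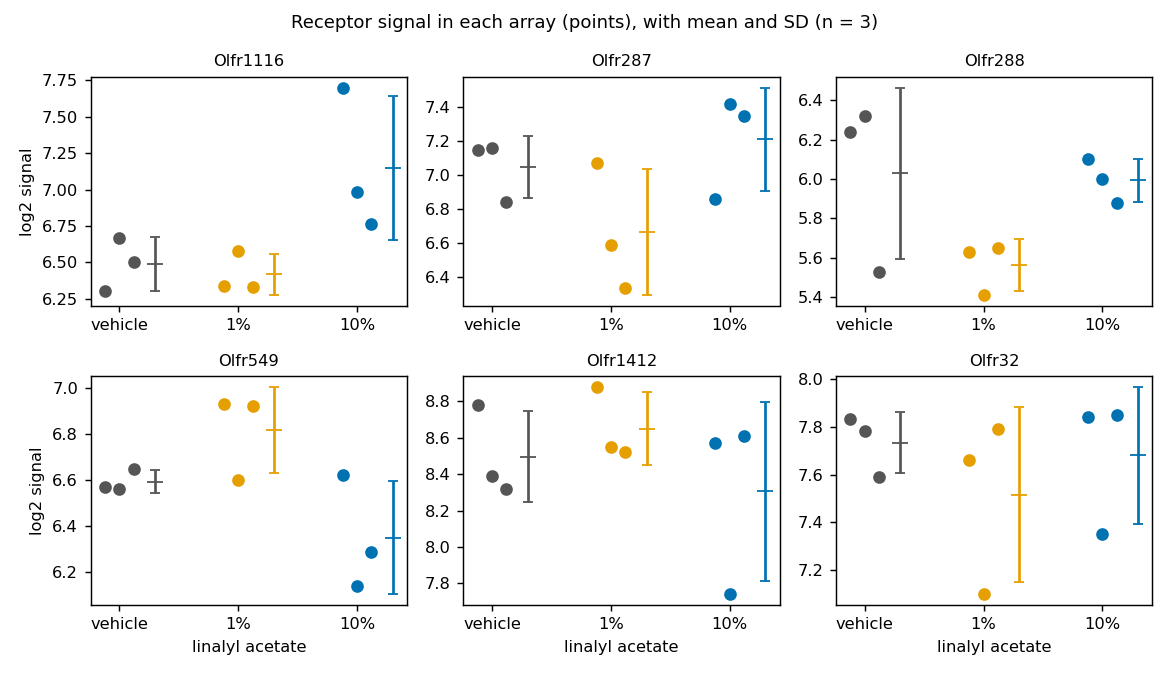
Log2 signal of 6 receptors in each array (points) with the group mean and SD (n = 3) in vehicle (grey), 1% (orange) and 10% linalyl acetate (blue), on separate vertical scales. Olfr1116 and Olfr288 have all 10% arrays above all 1% arrays, while Olfr287, Olfr549, Olfr1412 and Olfr32 overlap between these groups.

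Among receptors higher at 10%, the next by p after Olfr288 were Olfr19 and Olfr491. Olfr19 had 6.42, 6.43 and 5.88 at 10%, against 5.30, 5.71 and 6.14 at 1%. The groups overlapped, with a difference of 0.53 ± 0.28 (SE, limma adjusted p = 0.999). Olfr491 had 6.09, 6.52 and 6.23 at 10%, against 6.04, 5.44 and 6.11 at 1%, and these overlapped as well. In the other direction, the class I receptor Olfr692 had 6.02, 6.11 and 6.33 at 10%, against 6.62, 6.37 and 6.53 at 1%. It did not overlap, and its difference of -0.35 ± 0.19 did not pass (SE, limma adjusted p = 0.999). Olfr1286 had 6.19, 6.0 and 5.86 at 10%, against 6.50, 5.95 and 6.50 at 1%.

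Genes that act with the receptors were compared in the same way. In the receptor signalling list, 16 of 17 genes were measured, and 12 were higher and 4 lower at 10%. None passed adjustment, and 4 were higher at an unadjusted p under 0.05 in limma, beside 1.72% of all probe sets. The share of all probe sets higher at 10% at any p was not taken, here or for the lists below. Stoml3 had 12.01, 12.08 and 13.17 at 10%, against 11.48, 9.80 and 11.63 at 1%. All 10% arrays exceeded all 1% arrays, and the difference was 1.45 ± 0.50 (SE, limma adjusted p = 0.999). Omp had a difference of 1.26 ± 0.53 (SE, limma adjusted p = 0.999), with all 10% arrays above all 1% arrays. The difference was 0.61 ± 0.24 for Cnga4, a subunit of the olfactory cyclic nucleotide-gated channel, and 0.51 ± 0.20 for Gng13, a G protein gamma subunit (SE, limma adjusted p = 0.999 each). Cnga4 was dim and lay under the negative control median in every array. Means in vehicle, at 1% and at 10% were 12.02, 10.97 and 12.42 for Stoml3 and 10.88, 9.68 and 10.94 for Omp. They were 4.67, 4.19 and 4.80 for Cnga4 and 8.69, 8.57 and 9.08 for Gng13. The 1% mean was thus the lowest for each of these genes. Without 1% replicate 2, the array of its group with the highest cortical markers, the difference was 0.71 for Omp and 0.86 for Stoml3.

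In the receptor choice and export list, which holds transcription factors such as Lhx2 and Ebf1 and the chaperones Rtp1 and Rtp2 that carry receptors to the cell surface, 10 of 17 probe sets were higher and 7 lower at 10%, with none at an unadjusted p under 0.05 in limma and none after adjustment. Rtp1 and Rtp2 were dim, with vehicle means of 4.05 and 4.04 log2 units. Over the list, r with Omp ran from -0.84 to 0.88 with group means removed, with a median of 0.17. Rtp1 had 0.88, the highest, and Rtp2 had 0.86. In the axon and activity list, 5 of 8 measured genes were higher and 3 lower, none at an unadjusted p under 0.05. S100a5, a calcium-binding protein of sensory neurons whose level follows odour stimulation, had a difference of 0.97 ± 0.52 (SE, limma adjusted p = 0.999). Its means were 14.24 in vehicle, 13.47 at 1% and 14.45 at 10%.

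Receptors with odorants or maps known from other work were measured in 11 of 12 cases. Only Olfr1440, the muscone receptor, was among the 100, at rank 67, with 5.79, 6.22 and 6.17 in vehicle, 5.91, 6.17 and 6.77 at 1%, and 6.22, 5.87 and 6.14 at 10%. The groups overlapped. The others ranked from 149 for Olfr1507 to 1089 for Olfr151, and none of the 11 had an unadjusted p under 0.05 between doses in limma. Olfr544, a receptor for azelaic acid, ranked 80 and was named after its values were seen. It had 5.64, 5.90 and 6.23 in vehicle, 5.94, 5.99 and 6.06 at 1%, and 6.27, 5.82 and 6.10 at 10%, with overlap between all groups.

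Differences from vehicle are given as a description with no test, because the vehicle arrays chose the receptors and a choice of high values biases them downward. The 2 comparisons share the vehicle arrays. The median of 1% minus vehicle was -0.047 log2 units over the 100, against 0.033 over the other receptors, and 57 receptors lay below 0, beside 49.3% of all probe sets. The median of 10% minus vehicle was -0.042, against 0.013 over the other receptors, and 61 lay below 0, beside 48.2% of all probe sets. In the authors' deposited tables, which rest on the same arrays, 56 receptors at 1% and 59 at 10% had folds below vehicle. The share over all probe sets was not taken in those tables. Group means of the 100 were 6.27 ± 0.076 at 1% and 6.27 ± 0.12 at 10%, against 6.31 ± 0.0084 in vehicle (SD over arrays, n = 3 each).

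The shortfall was smaller or of the opposite sign when the arrays that chose the receptors were kept apart from those compared. Receptors were chosen as the 100 highest by 2 vehicle arrays and compared with the third, for each vehicle array in turn. The median of 1% minus the vehicle array left out was then 0.018, 0.018 and 0.012 for vehicle replicates 1, 2 and 3, with 48, 47 and 48 receptors lower. The median of 10% minus the vehicle array left out was -0.013, 0.023 and 0.005, with 51, 47 and 50 lower. The share of all probe sets that were lower was not taken for these counts. The vehicle array left out was itself below the arrays that chose, by medians of -0.03, -0.053 and -0.08. Other choices use the arrays compared. When the 100 highest were taken by all 9 arrays, which shares 90 receptors, the medians were 0.012 at 1% and -0.0067 at 10%. When they were taken by the 6 linalyl acetate arrays, which shares 87 and biases the differences upward, they were 0.038 and 0.0017.

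**Figure D5:**
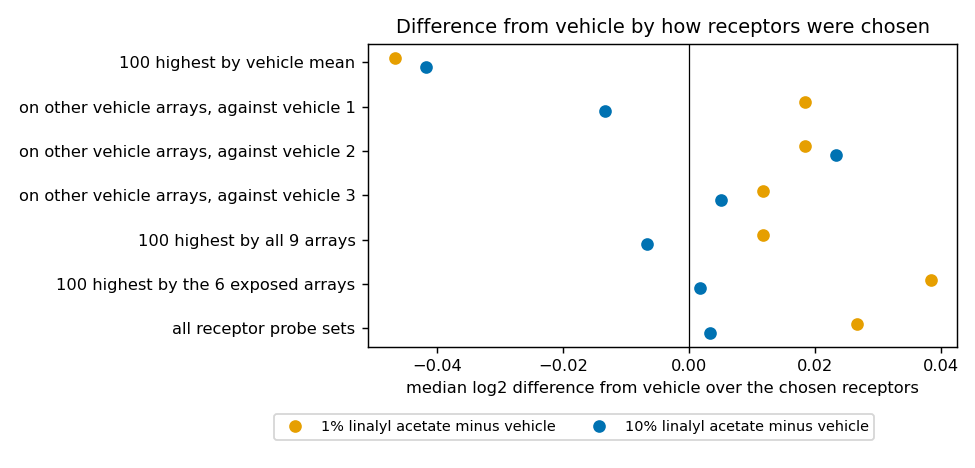
Median log2 difference from vehicle over the chosen receptors, for 1% (orange) and 10% linalyl acetate (blue), under 7 ways to choose the receptors and the vehicle arrays they are compared with. The choice on all vehicle arrays gives -0.047 and -0.042, and the other choices give -0.013 to 0.038.

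The receptors with the largest differences from vehicle are described by their values. At 1%, Olfr1066 had 5.46, 6.06 and 6.03, against 6.51, 6.48 and 6.10 in vehicle, and Olfr178 had 4.97, 5.49 and 5.81, against 5.75, 6.18 and 5.76. Olfr1066 did not overlap between these groups and Olfr178 did. Olfr110, given above, had the largest negative difference at 1%, -0.53. At 10%, Olfr112 had 5.81, 4.85 and 5.60, against 6.20, 5.63 and 6.33 in vehicle, and Olfr295 had 5.78, 5.96 and 6.0, against 6.56, 6.63 and 6.22. Olfr295 did not overlap and Olfr112 did. Olfr115 had 5.88, 5.63 and 5.42 at 10%, against 6.34, 6.40 and 5.83 in vehicle.

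In the other direction, Olfr1508 had 7.06, 6.28 and 6.70 at 1% and 6.75, 6.49 and 6.78 at 10%, against 5.88, 6.17 and 6.54 in vehicle. Its differences were 0.48 at each dose, and the groups overlapped in both comparisons. Olfr1039 had 6.43, 6.11 and 7.19 at 1%, against 6.30, 5.66 and 6.29 in vehicle, a difference of 0.49 with overlap. Olfr1036 had 6.31, 6.64 and 6.24 at 1%, against 6.37, 5.28 and 6.23 in vehicle, where replicate 2 stood well below the other arrays. Olfr228 and Olfr1116 had the largest positive differences at 10%, 0.75 and 0.66. Receptors whose groups did not overlap numbered 2 higher and 5 lower at 1%, beside 4.58% and 4.65% of all probe sets, and 1 higher and 5 lower at 10%, beside 4.1% and 3.36%.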

How the data were processed

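Values are log2 signals that the authors made with RMA in Transcriptome Analysis Console 4, per the submitters' processing notes, and deposited as a signal table of 22206 probe sets with 2 decimals. Of its cells, 27 held dates and were decoded, none in receptor rows, and the deposited series matrix of log2 values was within 0.0099 for receptors. The authors' deposited comparison tables give a signed fold score, a p-value and an adjusted p-value. The design text names a human array and cell line, and grouping follows the titles. A genome build was not given in the sources used here. Scanner files were not used here.

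A limma 3.58.1 means model in R 4.3.3 was fitted to 21367 probe sets with 1 symbol over 9 arrays, with Benjamini-Hochberg adjustment at 0.05. The number of arrays limits the precision. Of the receptor rows, 21 with several symbols were left out, 3 of them above the lowest of the 100. The fit was tested on simulated data. Same-numbered arrays correlated at -0.16 to 0.28 in their deviations from group means, and the fit reported did not pair arrays by number. With 3 arrays per group, these correlations cannot exclude a pairing. Figures and summaries were made with Python 3.11.15, numpy 2.4.6, pandas 2.3.3 and matplotlib 3.10.9, and windows were aligned with Biopython 1.88 (match 2, mismatch -1, gap open -4, gap extension -1).

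Members and gene lists were chosen with earlier results of these data known. Named receptors are the 10 brightest, 5 on each side of the limit, the 3 largest and 3 smallest SDs, the 5 smallest p per direction between doses, the 3 largest differences from vehicle per direction and dose, the 5 highest and 3 lowest r with Omp, and the receptors known from other work. Other genes are Omp and up to 4 per list by p. Not all are printed, and Olfr111, Olfr147, Th, Gad1, Lhx2, Rtp1, Rtp2, Obp1a, Obp1b and Mup4 were named outside this rule. Alternatives were other scalings, fits, choices of receptors and sets of arrays.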

Additional observations from a re-analysis of the deposited data

Results flagged for a closer look

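Olfr239 drew attention because its differences from vehicle ran in opposite directions at the 2 doses. It had 6.59, 6.63 and 6.68 log2 units at 1% and 6.42, 6.38 and 6.26 at 10%, against 6.78, 6.28 and 6.69 in vehicle. Every 1% array lay above the vehicle mean, with a mean difference of 0.05, and every 10% array below it, with a mean difference of -0.23. Both groups overlapped vehicle, whose replicate 2, at 6.28, lay below every 1% array and above 10% replicate 3. Vehicle replicates 1 and 3 lay above every 1% array. The share of all probe sets with such a pattern was not taken. The vehicle arrays chose this receptor and are shared by both differences, and the difference between them was not tested against vehicle. Between 10% and 1% the limma difference was -0.28 ± 0.17 (SE, adjusted p = 0.999).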

How the results depend on the processing

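No alternative gave a receptor past adjustment between doses, with 0 of the 100 in each. The count at an unadjusted p under 0.05 between 10% and 1%, 3 in the fit reported, was 1 to 4 when single arrays were left out, 1 of them without 10% replicate 2. It was 6 without the 3 arrays of higher cortical signal. In the fit reported it was 10 among the 200 highest receptors and 58 among all 1096 (5.29%), beside 3% of all probe sets. The share over all probe sets was not taken in the other fits. Without single arrays the median of 10% minus 1% was -0.048 to 0.027, that of 1% minus vehicle -0.056 to -0.01, and that of 10% minus vehicle -0.097 to -0.021. The median of 1% minus vehicle was 0.038 for receptors chosen on the 6 linalyl acetate arrays, 0.027 for all receptors, and 0.015 without the 3 arrays of higher cortical signal. Without single arrays the median r with Omp over arrays, 0.07 in the fit reported, was -0.042 to 0.12, and it was -0.08 without the 3 arrays of higher cortical signal. The median SD among vehicle arrays was 0.184 to 0.244 without single arrays.

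With the replicate number as a block the count between doses was 3, and these were the same receptors. The block leaves group differences unchanged, since each group holds every replicate number, and calls against vehicle were not compared. With the block the median r with Omp was -0.048. Olfr1116 kept an unadjusted p under 0.05 without each single array, with differences of 0.45 to 0.92. Omp and Stoml3 without single arrays were added after seeing the data. Olfr287 lost it without 1% replicate 2 or 3 or 10% replicate 2 or 3, with differences of 0.38 to 0.51, and Olfr549 lost it without 1% replicate 1 or 3 or 10% replicate 2 or 3, with differences of -0.44 to -0.36. The cause was not tested. Most of the 100 lie under the median of the negative controls, which limits what their signals can show.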
